A study of Mus musculus with 16 samples.

Results

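The translational efficiency of genes in wild-type (WT) mouse cortex was described here as the level of ribosome footprints relative to the level of RNA in the same genotype. The members were the 4 WT libraries of the series, 2 ribosome profiling libraries and 2 RNA-seq libraries, chosen by genotype and assay in their titles, of 16 libraries in all. The other 12 libraries came from Fmr1 knockout, Cpeb1 knockout and double knockout (Fmr1 and Cpeb1) mice, with 2 libraries of each assay per genotype, and served as a shared estimate of spread and for comparison. All mice were 28 to 35 days old and are labelled with the FVB.129P2-Pde6b+ Tyr c-ch/AntJ strain background, and no mouse is labelled as treated. Both hemispheres of a cortex were homogenised in a buffer with cycloheximide and harringtonine, and the cytoplasmic lysate was divided between the assays. The RNA is that of a whole tissue, in which a difference in cell makeup and a difference in RNA per cell cannot be told apart.

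In ribosome profiling an RNase digests the RNA that ribosomes do not cover, and the protected fragments, or footprints, are sequenced. Footprints per unit of RNA rise when more ribosomes occupy a coding sequence, which can come from more frequent initiation or from slower elongation, so the ratio is a measure of ribosome occupancy and not a direct count of protein made. In neurons many mRNAs are held in a poorly translated state, and proteins such as FMRP, the product of Fmr1, bind mRNAs of synaptic proteins and repress them.

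The deposited tables listed 20436 genes, and 13061 of them were tested for a difference between footprints and RNA in WT. The log2 translational efficiency, called log2 TE below, is the fitted log2 ratio of footprints to RNA per nucleotide of coding sequence, scaled so that the typical gene lies near 0. A value of 1 therefore means a ratio that is 2-fold above that of the typical gene. The value after ± is an approximate standard error (SE). It was derived as the absolute log2 TE over the square root of the F statistic of edgeR's quasi-likelihood test. A gene was called high when log2 TE was 1 or more and low when it was -1 or less, with a Benjamini-Hochberg adjusted p under 0.05 in edgeR's quasi-likelihood test over all genes tested. TPM values, which are scaled to length and library by the authors, are given for single libraries in the order 1, 2. Nothing in the labels says that the 2 libraries of a group came from separate animals, and p-values then measure only the spread between these libraries, which may be technical.

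The WT libraries held 10246482 and 5423925 estimated RNA counts and 24973757 and 21478167 footprint counts, and no knockout library lay above the deeper WT library of its assay. Fmr1 was at 88.5 and 74.4 TPM in WT RNA and at 56.9 and 57.9 TPM in WT footprints. In the Fmr1 and double knockouts it was at 14.6 to 20.7 TPM in RNA and 3.20 to 5.04 TPM in footprints. Cpeb1 was at 38.8 and 29.7 TPM in WT RNA and at 23.1 and 21.9 TPM in footprints. In the Cpeb1 knockout it was at 13.35 and 17.06 TPM in RNA and 4.65 and 4.94 TPM in footprints. Markers of cortical excitatory neurons summed to 1604 and 1603 TPM in WT RNA, and all 5 were detected in each WT library, as were all 6 markers of inhibitory neurons. Liver markers summed to 0.31 to 0.92 TPM in the WT libraries. Striatum markers summed to 456 and 601 TPM in WT RNA and to 927 and 795 TPM in WT footprints. How much striatal tissue the lysates held was not tested. Blood markers summed to 31.1 and 75.2 TPM in WT RNA and to 18.2 and 101 TPM in WT footprints, higher in library 2 of both assays. Ttr, a choroid plexus gene, was at 187 and 782 TPM in WT RNA libraries 1 and 2 but at 54.7 and 60.1 TPM in footprint libraries 1 and 2, and values of genes of that tissue are not described further.

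Footprint levels followed RNA levels across genes in WT cortex, and a wide range of efficiency remained around that relation. Across the 13061 genes, which are not independent replicates, log2 footprint TPM and log2 RNA TPM correlated at r = 0.905 in replicate 1 and 0.899 in replicate 2. The spread of footprint levels over genes was the wider one, with an SD of 2.53 on the log2 TPM scale against 2.13 for RNA. The 100 genes with the highest level held 13.8% and 13.5% of RNA TPM but 23.0% and 22.9% of footprint TPM in replicates 1 and 2. Log2 TE had an SD of 1.16 over genes, and its 5th and 95th percentiles were -1.97 and 1.43, a 10.5-fold range. The difference between the replicate pairs gave an SD of 0.341 per pair, and 0.213 in the 6879 genes with at least 200 RNA counts on average, so the spread between genes was several times that between pairs.

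**Figure D1:**
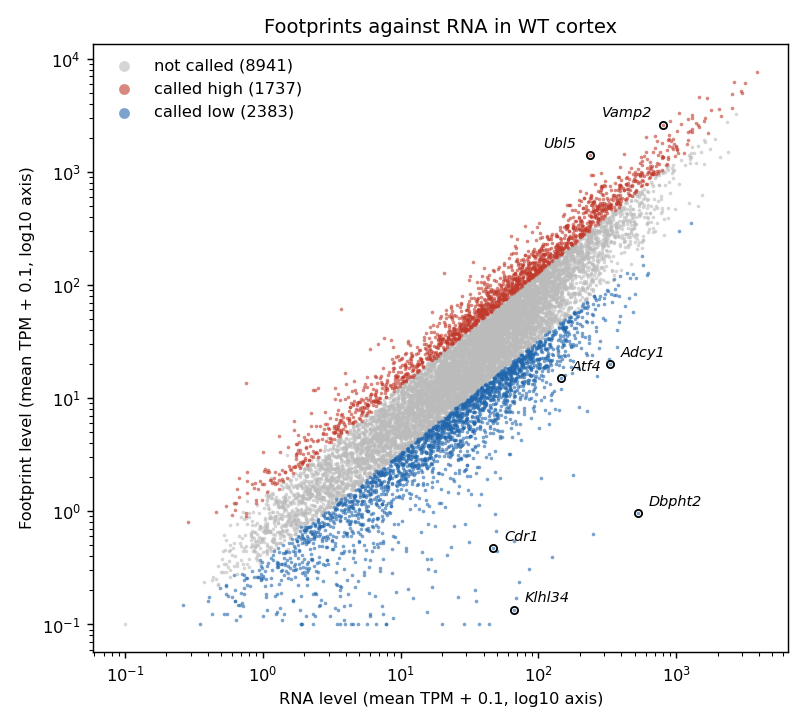
Mean footprint TPM against mean RNA TPM of the 2 WT libraries of each assay, for 13061 genes, on log10 axes with 0.1 TPM added. Genes called high (1737) lie above the main cloud and genes called low (2383) below it, and the low genes reach much further from it than the high ones.

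Of the 13061 genes, 9089 (69.6%) differed from the typical ratio at an adjusted p under 0.05 in edgeR, 4529 (34.7%) above it and 4560 (34.9%) below it. With the fold limit, 1737 genes (13.3%) were called high and 2383 (18.2%) low. In 1290 of the high genes and 1984 of the low genes both WT pairs lay beyond the limit on their own. The range was lopsided: 628 genes were low by 2 or more on the log2 scale and 117 high by as much, and beyond 4 there were 107 low and 2 high genes. In the authors' deposited table of Xtail values for the Fmr1 knockout, which lists a WT log2 TE for 13024 of the tested genes, all 1733 high genes found there were above 0 and 2332 of 2352 low genes were below 0, in values that come from the same WT libraries.

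The genes that took most of the ribosomes were mostly genes with both abundant RNA and an efficiency above the typical one. Genes near the top of the footprint order were Ppia (cyclophilin A), at 2591 and 2687 TPM in RNA and 6195 and 6205 TPM in footprints, Snap25 (a SNARE protein of synaptic vesicle fusion), Calm2, Hspa8 (a constitutive Hsp70 chaperone), Ywhaz (a 14-3-3 protein), Nrgn, Cfl1, Aldoa and Ckb. These genes had log2 TE values between 1.18 (Aldoa, a glycolytic aldolase) and 2.28 (Nrgn), and all were called high. Efficiency moved some genes far up the order. Nrgn, which encodes the calmodulin-binding postsynaptic protein neurogranin, ranked 26 in RNA with 1463 and 1467 TPM and 7 in footprints with 4235 and 4928 TPM. Cfl1, the actin-severing protein cofilin, ranked 18 in RNA and 8 in footprints. Among the 100 genes with most footprint TPM, 77 were called high and 0 low, and their median log2 TE was 1.45. Since footprint TPM is the numerator of the ratio, this share is a description of the ranking and not a separate result.

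The highest efficiencies belonged mainly to short coding sequences of small proteins: 11 of the 12 genes named by the rule for high genes had 204 to 705 coding nucleotides. Ubl5, a ubiquitin-like protein of 219 coding nucleotides, was at 224 and 253 TPM in RNA and at 1335 and 1473 TPM in footprints. Both footprint libraries were far above both RNA libraries, and log2 TE was 3.20 ± 0.118 (adjusted p = 2.35e-10, edgeR). Ubald1, of unknown function, was at 33.5 and 33.9 TPM in RNA and 154 and 164 TPM in footprints, with a log2 TE of 2.87 ± 0.154. Rnasek, a small membrane protein that associates with the vacuolar proton pump, had 256 and 224 TPM in RNA and 898 and 995 TPM in footprints. Atp6v0e2, a subunit of that proton pump, had 214 and 284 TPM and 926 and 941 TPM. Log2 TE was 2.61 ± 0.116 for Rnasek and 2.56 ± 0.129 for Atp6v0e2, and the libraries of the 2 assays did not overlap for either gene. Sox9, a transcription factor of astrocytes and glial progenitors, was the exception in size with 1521 coding nucleotides, and went from 7.98 and 8.95 TPM in RNA to 32.9 and 32.4 TPM in footprints (log2 TE 2.60 ± 0.183). The other genes among the 12 highest that had at least 50 RNA counts were Fam168a (2.76), Pcp4l1 (2.68), Mrps36 (2.51), Adi1 (2.49), Ddt (2.47), Gng7 (2.45) and Hcfc1r1 (2.44), each given with its log2 TE. Adi1 lay apart from the rest of this group in the knockouts, where its 6 pairs had log2 TE values of 0.64 to 2.02 against 2.21 and 2.86 in the WT pairs, a difference that did not pass the test over all genes (adjusted p = 0.0795, edgeR) but did in DESeq2.

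Gng7 pointed to 2 signalling families that were looked at after their values were seen. G protein gamma subunits are the small membrane-anchored partners of G beta subunits, and 7 of the 9 tested members were called high and none low. Of all genes 13.3% were high, and 43.5% of those with 189 to 561 coding nucleotides, the group that holds this family's median length. The family's median log2 TE was 2.09, and 1.20 after the median of genes of like coding length was taken off. Gng3, a neuronal member, was at 399 and 434 TPM in RNA and 1455 and 1422 TPM in footprints. Its log2 TE was 2.43 ± 0.145, and that of Gng2 was 2.09. Gnb1, the beta subunit encoded by a longer sequence, had a log2 TE of 0.97 and was not called. The 14-3-3 proteins, adaptors that bind phosphorylated proteins, were all called high, 6 of 6, with a median of 1.74, and 1.20 after the same step. In the length group that holds their median length, 562 to 786 nucleotides, 26.6% of genes were high. Ywhab was at 703 and 700.1 TPM in RNA and 2099 and 2029 TPM in footprints (log2 TE 2.20 ± 0.0956), and Ywhaq, the lowest of the 6, was at 1.20.

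**Figure D2:**
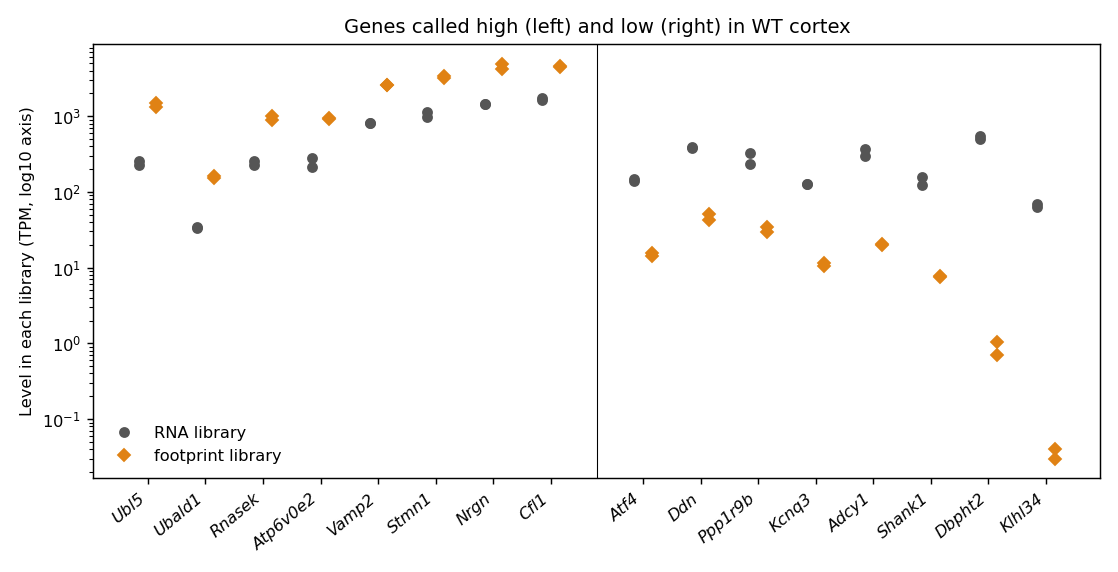
TPM of 8 genes called high (left) and 8 called low (right) in each WT library, on a log10 axis, with 1 point per library (2 RNA, 2 footprint). Footprint points of the high genes lie above their RNA points, those of the low genes below, and the 2 libraries of an assay lie close to each other beside the distance between assays.

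The least efficient genes had cytoplasmic RNA with almost no footprints. Klhl34, a kelch-domain protein of unknown function encoded on the X chromosome, had 831 and 501 RNA counts in the WT libraries and 2 and 1 footprint counts. A gene of typical efficiency with that RNA would have had 3533 footprints over both libraries, and the observed level was 1178-fold lower (95% counting interval 402 to 5717). Dbpht2, a gene of unknown function, had 495 and 555 TPM in RNA, more than Fmr1, and 0.70 and 1.03 TPM in footprints, 411-fold below the typical ratio (229 to 826). Slc3a1, a subunit of the renal cystine transporter, was 258-fold below it (164 to 429), with 80.5 and 91.5 TPM in RNA and 0.25 and 0.17 TPM in footprints. For all 3 genes the 2 assays were separated by far more than the libraries of an assay. Ackr1, a chemokine-scavenging receptor, had 693 RNA counts and 3 footprints over both libraries (605-fold, 206 to 2943). Hipk4, a protein kinase, had 682 and 5 (361-fold, 154 to 1115), and Ccdc73 had 294 and 2 (395-fold, 108 to 3277). The other genes with some footprints among the 12 lowest chosen by the rule for low genes were Fer1l5, Masp2, Sp140, Slc24a5 and Il12rb2. Fer1l5 was 308-fold below (54.2 to 12287), from 0.56 estimated footprint counts rounded to 1. Masp2 was 247-fold below (83.7 to 1202) and Sp140 216-fold (104 to 541). Slc24a5 was 214-fold below (91.1 to 664) and Il12rb2 107-fold (45.0 to 332). These intervals cover counting error only, and reads of PCR-amplified libraries are not independent molecules.

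Lkaaear1 was the one of these 12 lowest genes with no footprint in WT. It had 90.8 and 136 estimated RNA counts and 0 footprints in either WT library. Its level was 208-fold below the typical ratio when 3 counts over both libraries are taken as the floor. The lower end of its counting interval was 168-fold. In the knockouts the same gene had 3.74 to 29.5 footprint counts and 3 to 195 RNA counts per library, and log2 TE in the 6 pairs was -3.98 to 0.86. In all, 18 of the tested genes had no WT footprints.

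Many of the least efficient genes overlapped another gene in position. Using RefSeq positions on GRCm38.p6, 12404 tested genes could be placed, and 39.6% of them overlapped another annotated protein-coding or long non-coding gene. The share was 32.0% of high genes, 46.5% of low genes and 61.8% (63 of 102) of genes low by 4 or more on the log2 scale. Median gene span was 14599, 45478 and 13972 nucleotides in these groups and 26515 in all placed genes, and the part of span in the shares was not tested. Genes wholly within another made up 2.60% of high genes, 2.90% of low genes, 15.7% of those low by 4 or more and 2.40% of all. Of the 12 lowest named genes 8 overlapped another gene, against 3 of the 12 highest. The covered part of the span was small for Ccdc73 (0.0723%), Il12rb2 (3.67%), Slc3a1 and Fer1l5 (6.43%), and larger for the other low genes that overlapped. In the 3 high genes it was 16.2% to 48.7%. Lkaaear1 and Klhl34, the lowest of the named genes, overlapped no other gene. Ackr1 (chromosome 1, 173331886 to 173333503) lay over 99.6% of its length inside the span of Cadm3, a neuronal adhesion molecule with 283 and 322 TPM in RNA, 289.6 and 299 TPM in footprints and a log2 TE of 0.60. Masp2 (chromosome 4, 148594622 to 148615499) shared 14.9% of its span with Tardbp, and Slc3a1 (chromosome 17, 85028347 to 85064241) shared 4.82% with Prepl. Tardbp, an RNA-binding protein, and Prepl, a prolyl peptidase-like hydrolase, were themselves called high, at 1.12 and 1.38. Among the 9 partners that were tested, which include those of Gdf1 and Oaz3 described below, none was called low. Of all genes 18.2% were low, so few low calls would come from 9 genes at that share. The deposited values do not say whether counting used strand, and reads of an overlapping neighbour cannot be told from a gene's own RNA here.

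Another 2 genes, named after their values were seen, have an unusual transcript. Gdf1 encodes a growth factor of the TGF-beta family and is known to lie downstream of Cers1 on a shared transcript with 2 reading frames. It had 60.5 and 73.5 TPM in RNA and 0.50 and 0.39 TPM in footprints, 95.2-fold below the typical ratio (61.2 to 157). Cdr1 is the annotated reading frame at the locus of the circular RNA Cdr1as, which is abundant in neurons and is read from the opposite strand. It had 34.2 and 59.5 TPM in RNA and 0.39 and 0.36 TPM in footprints, 78.3-fold below (52.6 to 122).

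Efficiency declined with the length of the coding sequence over its whole range. Genes were divided into 10 groups of equal size by coding length. The shortest, of 189 to 561 nucleotides, had a median log2 TE of 0.89, with 43.5% of genes high and 3.81% low. The median was lower in each longer group and reached -0.90 in the longest, above 3570 nucleotides, where 0.383% were high and 45.0% low. The WT pairs gave 0.92 and 0.82 in the shortest group and -0.95 and -0.84 in the longest, and the 6 knockout pairs gave 0.70 to 1.01 in the shortest group and -0.70 or lower in the longest. Across genes log2 TE and log2 length correlated at r = -0.427. Without the offset for the effective length, which is the number of positions a read can take, the counts were 1572 high and 2328 low. The offset itself depends on length. The log2 ratio of footprint to RNA effective length was -0.50 for Gng7 (207 coding nucleotides) and -0.0061 for Bsn (11826), so it raises short genes more. The medians by length group were not computed without it.

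**Figure D3:**
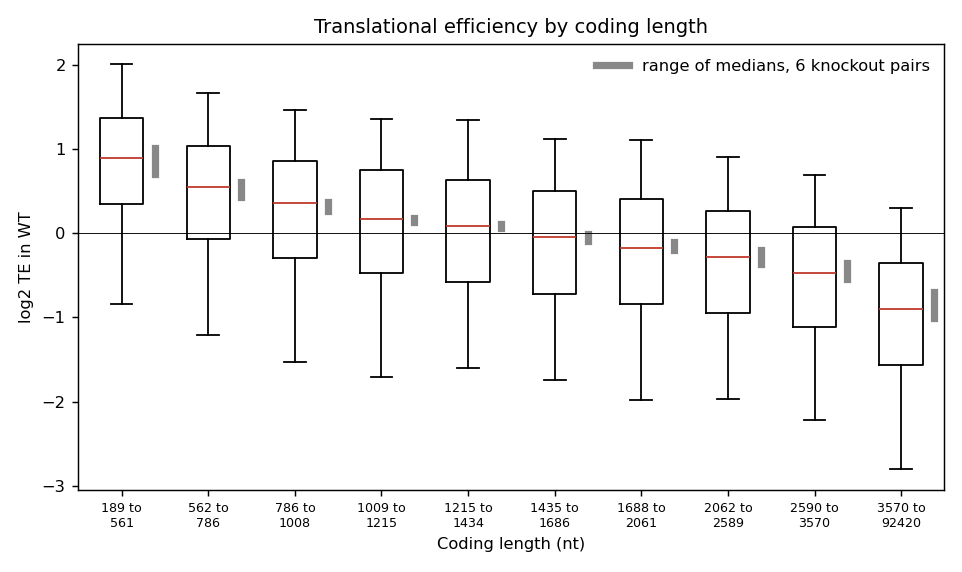
Log2 TE in WT by group of coding length, 10 groups of 1297 to 1313 genes from shortest to longest. Boxes span the quartiles with the median as a line and whiskers the 5th to 95th percentiles, and grey bars beside them give the range of the group median over the 6 knockout pairs. The median falls from 0.89 in the shortest group to -0.90 in the longest.

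Abundant RNAs were more efficient on the whole. To keep a library out of both sides, genes were ranked by RNA TPM in 1 replicate and log2 TE was read from the other. The median was -0.26 and -0.25 in the least abundant of 10 groups of genes and 0.67 and 0.66 in the most abundant, for the 2 ways of doing this, and the correlation was r = 0.192 and 0.197. Length and abundance are measured on the same genes, and their shares in the range of efficiency were not separated. For that reason each gene list below is given with its median log2 TE and with its median after the median of its length group is taken off, called the length-adjusted median. Counts of called genes in a list are to be read against the 13.3% high and 18.2% low of all genes.

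Ribosomal proteins were translated near the typical ratio although their coding sequences are short. Most of their mRNAs are known to begin with a C and a run of pyrimidines, the terminal oligopyrimidine (TOP) motif, through which mTOR signalling controls their translation. The starts of 5 such mRNAs are shown because they carry the motif and span the range of efficiency. Each line gives 30 bases from 10 before to 20 after the annotated start, read on the transcript's strand from RefSeq sequence (GRCm38.p6), with the tract in capitals.
Rpl28 (chr7:4792955-4792984, plus strand): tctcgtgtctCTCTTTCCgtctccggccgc
Fau (chr19:6057937-6057966, plus strand): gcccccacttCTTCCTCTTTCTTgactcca
Rpl15 (chr14:18270967-18270996, minus strand): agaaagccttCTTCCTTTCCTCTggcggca
Rps6 (chr4:86857348-86857377, minus strand): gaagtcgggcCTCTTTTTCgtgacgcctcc
Rps27 (chr3:90213629-90213658, minus strand): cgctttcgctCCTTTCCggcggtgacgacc

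Of 76 ribosomal protein genes tested, 7 were called high and 1 low, and their median log2 TE was 0.14, against 0.01 for all genes. The length-adjusted median was -0.55. They made up 3.53% and 4.24% of RNA TPM but 2.82% and 3.06% of footprint TPM in replicates 1 and 2. The genes differed widely among themselves. Rps13 was at 213 and 279.9 TPM in RNA and 491 and 524 TPM in footprints, the highest of the list with a log2 TE of 1.70 ± 0.111, and Rpl28 followed at 1.39 and Rpl27 at 1.36. Rps12 was the only one called low (2 genes were without replicate 2), at 427 and 589.6 TPM in RNA and 114 and 118 TPM in footprints (-1.47 ± 0.124). The 5 genes with printed starts ran from 1.39 for Rpl28 through 0.75 for Fau, 0.54 for Rpl15 and 0.32 for Rps6, which did not pass without replicate 1 (edgeR, adjusted p = 0.380), to -0.58 for Rps27. Many of these genes have near-identical copies in the genome, and how reads that match several copies were divided is not known here, so single values are uncertain.

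The tract was also searched in all annotated starts, as a C at the first base followed by at least 4 C or T, on the transcript's strand. Among 7815 tested genes with exactly 1 annotated start, 185 (2.37%) held it, and 2.46% of high genes and 1.79% of low genes did. Among 48 ribosomal protein genes with 1 start 12 held it, with a median log2 TE of 0.54, against 0.01 in the 36 without it. An annotated start can differ from the one used in cortex. The other TOP mRNAs of the list, for elongation factors and related proteins, had a median of 0.44 and a length-adjusted median of 0.31, with 3 of 18 high and 0 low. Npm1, the nucleolar chaperone nucleophosmin, was at 1.50 and Btf3, a subunit of the nascent-chain binding complex, at 1.46, while Eef1g, a subunit of the elongation factor 1 complex, was at -0.18 and did not pass the test.

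Other parts of the translation machinery stood above the typical ratio. Of 35 initiation factor genes 10 were called high and 1 low, with a median log2 TE of 0.87 and a length-adjusted median of 0.52. Eif1, which keeps the scanning ribosome from starting at poor start codons, was at 659 and 802 TPM in RNA and 1856 and 1903 TPM in footprints (log2 TE 2.01 ± 0.127). Its paralog Eif1b was at 1.71, and Eif3j1, a subunit associated with the eIF3 complex, at 1.69. The low member was Eif4g2, a relative of the scaffold eIF4G that starts at a GUG codon, with 396 and 489.9 TPM in RNA, 125 and 128 TPM in footprints and a log2 TE of -1.16 ± 0.140. Of 21 aminoacyl-tRNA synthetase genes 17 were above the typical ratio at an adjusted p under 0.05 in edgeR (34.7% of all genes were) and 1 below. The gene below was Fars2 (-0.64), which encodes a mitochondrial enzyme, while the list was meant for cytosolic ones, and did not pass without replicate 2 (adjusted p = 0.0662, edgeR). Wars (1.34) and Dars (1.08) were called high, and 3 genes were without replicate 1 and 1 without replicate 2. Their median of 0.38 became 0.86 after adjustment for length.

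Genes known for upstream reading frames that capture scanning ribosomes were among the least efficient lists. Of 17 such genes 9 were called low and none high, with a median log2 TE of -1.23 and a length-adjusted median of -1.04. Atf4, the transcription factor of the integrated stress response, was at 141 and 149.5 TPM in RNA and 14.4 and 15.4 TPM in footprints (log2 TE -2.65 ± 0.114, adjusted p = 5.64e-10, edgeR). Both footprint libraries lay far below both RNA libraries. Ppp1r15a, the phosphatase subunit that ends that response, was at 10.1 and 7.95 TPM and 0.52 and 0.46 TPM, the lowest of the list at -3.55 ± 0.261. Atf5, a related factor, was at -3.45. In the 6 knockout pairs Atf4 ranged from -2.91 to -2.45.

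Of 11 genes of polyamine enzymes and antizymes 3 were called low (27.3%, against 18.2% of all genes) and none high, with a median of -0.61 and a length-adjusted median of -0.80. Oaz1, the antizyme whose full reading frame needs a programmed frameshift, was at 585 and 671 TPM in RNA and 123 and 130.4 TPM in footprints (log2 TE -1.67 ± 0.201), and Sat1, the enzyme that acetylates spermidine and spermine, at 52.2 and 83.7 and 9.82 and 10.8 TPM (-2.03 ± 0.193). The third low gene was Oaz3, with 29 RNA counts and 0 footprints over both libraries. Its level was 24.0-fold below the typical ratio at the same floor of 3 counts, and the lower end of its counting interval was 18.3-fold. Of 20 selenoproteins, whose mRNAs read a UGA codon as selenocysteine, 2 were called high (10.0%, against 13.3% of all genes) and 2 low (10.0%, against 18.2%), with a median of -0.12 and a length-adjusted median of -0.35. Selk was at 1.78, Sepw1 at -1.17 and Sephs2 at -1.30, and the low count was 3 without replicate 1 and 1 without replicate 2. Of 5 mRNAs with an iron-responsive element in the 5′ untranslated region 1 was high, Epas1 (1.27), and 2 were low, the iron exporter Slc40a1 (-1.71) and Alas2 (-2.49), the first enzyme of heme synthesis in red cell precursors. Their median was 0.0021 and the length-adjusted median -0.89, and without replicate 1 none was high. Alas2 was at -3.62 in pair 1 and -1.78 in pair 2, and the blood markers, of which it is one, were higher in library 2 of both assays; their part in this was not tested.

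Glycolysis had the highest median of the lists shown in the plot of gene lists, and the respiratory chain, proteasome and chaperone genes also lay above the typical ratio. Of 16 glycolysis genes 11 were called high and none low, with a median log2 TE of 1.23 and a length-adjusted median of 1.01. Gapdh was at 592 and 628 TPM in RNA and 1094 and 1083 TPM in footprints (1.47 ± 0.0881), and Gpi1, the next step after hexokinase, was at 1.43. The 3 subunits of phosphofructokinase, the committed step, were the lowest of the list, Pfkp at 0.72, Pfkm at 0.61 and Pfkl at 0.16. Of 74 nuclear-encoded respiratory chain genes 33 were high (44.6%, and 24 genes without the length offset) and none low. Their median coding length, 430.5 nucleotides, lies in the shortest length group, where 43.5% of all genes were high, so the high count was near the share of that group. At an adjusted p under 0.05 in edgeR 72 of the 74 were above the typical ratio (34.7% of all genes were). The median of the list was 0.90, and 0.29 after adjustment for length. Ndufa4, a small complex IV-associated subunit, was at 1042 and 1144 TPM in RNA and 2609 and 2665 TPM in footprints (1.91 ± 0.0934), and Cycs, cytochrome c, at 1.84.

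All 14 proteasome core genes were above the typical ratio at an adjusted p under 0.05 (34.7% of all genes were), and 4 were called high (28.6%). In the length group of 562 to 786 nucleotides, which holds their median length, 26.6% of genes were high. The proteasome list had a median of 0.87 and a length-adjusted median of 0.37. Psmb2 was the highest at 1.72 and Psmb5 the lowest at 0.36, and Psmb5 did not pass with either replicate left out (adjusted p = 0.0538 without replicate 1 and 0.243 without replicate 2). Of 21 cytosolic chaperone genes 8 were high and none low, with a median of 0.94 and a length-adjusted median of 1.04. Dnaja1, an Hsp40 co-chaperone, was at 1.64, and Cct7, a subunit of the TRiC folding complex, at 0.59. Genes of actin, tubulin, neurofilaments and their regulators gave 13 high and 0 low of 21, with a median of 1.12 and a length-adjusted median of 1.03. Stmn1, the microtubule-destabilising protein stathmin, was at 1128 and 967 TPM in RNA and 3220 and 3438 TPM in footprints (2.31 ± 0.111), Cfl1 at 2.08 and Pfn1, profilin, at 1.93. The 3 lowest members were the neurofilament subunits Nefl at 0.39 and Nefh at -0.19, the latter not past the test, and the alpha-tubulin gene Tuba1c. Tuba1c had 478 and 274 RNA counts but 2310 and 3.39 footprint counts in WT libraries 1 and 2, so that log2 TE was 1.17 in pair 1 and -8.06 in pair 2. Its fitted value of -1.08 ± 1.29 did not pass, and it was called low without replicate 1 and with the WT libraries alone. Alpha-tubulin genes are near-identical in sequence, and single values of them are uncertain.

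**Figure D4:**
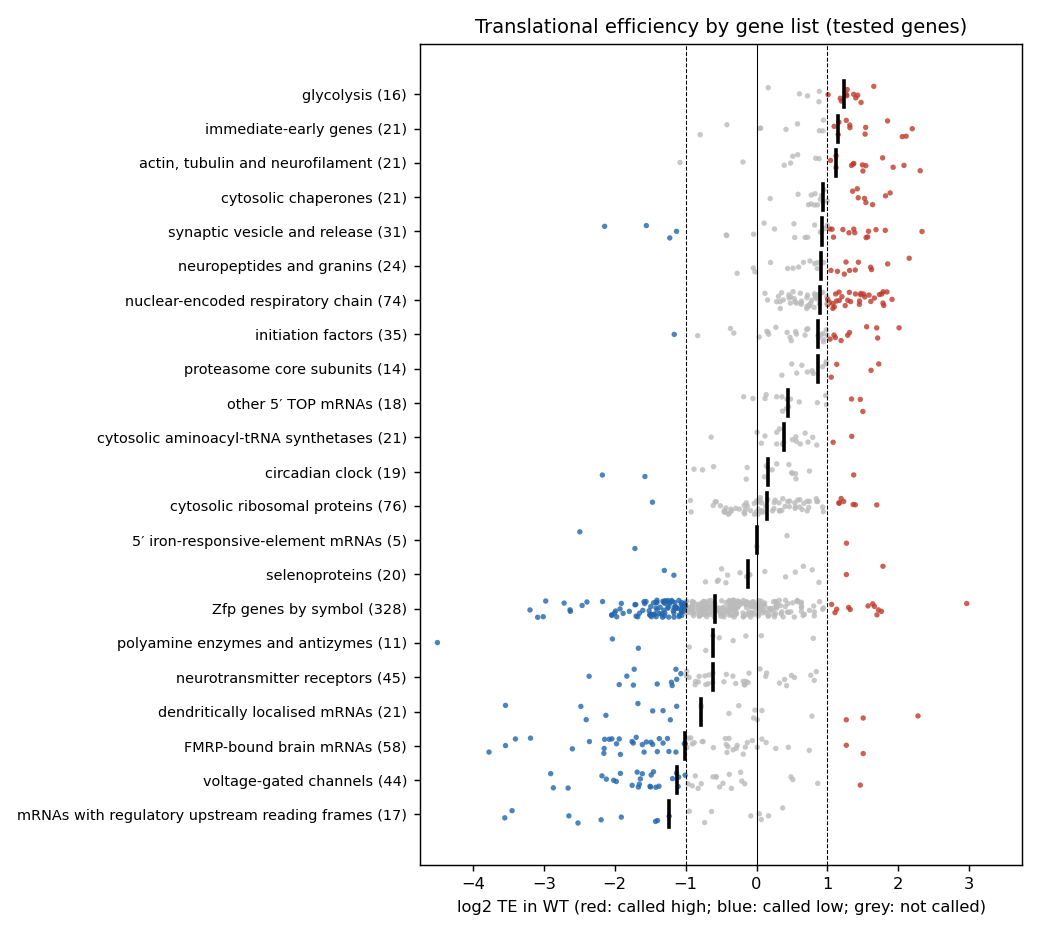
Log2 TE in WT of each tested gene (points) of the gene lists, with the list median as a bar, ordered by median, and dashed lines at 1 and -1. Red points were called high and blue points low, numbers in brackets are tested genes, and Oaz3, which had no footprints, is drawn at the left edge. Glycolysis, immediate-early and cytoskeletal genes lie highest and upstream-reading-frame, channel and FMRP-bound genes lowest.

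Neuronal genes divided by the kind of protein. Of 31 genes of synaptic vesicles and transmitter release 13 were called high and 4 low, with a median log2 TE of 0.92 and a length-adjusted median of 0.60. Vamp2, the vesicle SNARE synaptobrevin, was at 803 and 811 TPM in RNA and 2615 and 2615 TPM in footprints (2.33 ± 0.113). Sncb, beta-synuclein, was at 1.82, and Cplx2, the fusion clamp complexin, at 1.68. The low members included the active zone scaffolds Pclo (-2.14) and Bsn (-1.55) and the vesicular glutamate transporter Slc17a7, which was at 1284 and 1284 TPM in RNA and 341 and 366 TPM in footprints (-1.22 ± 0.0889). Gad1, the enzyme that makes GABA, named here after its values were seen, was at 446 and 442 TPM in RNA and 761 and 761 TPM in footprints (1.42 ± 0.0885).

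Neuropeptides and granins, the cargo of dense-core vesicles, were efficient. Of 24 such genes 11 were called high and 0 low, with a median log2 TE of 0.90 and a length-adjusted median of 0.55. Npy, neuropeptide Y, was at 168 and 169.5 TPM in RNA and 376 and 407 TPM in footprints (1.85 ± 0.143), Sst, somatostatin, at 1.62, and Tac2, the precursor of neurokinin B, at 2.15.

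Receptors and channels had medians below the typical ratio. Of 45 neurotransmitter receptor genes none was called high and 11 were low (24.4%, against 18.2% of all genes and 23.1% of the length group of 2062 to 2589 nucleotides, which holds their median length), with a median log2 TE of -0.62 and a length-adjusted median of -0.26. Grin2a, an NMDA receptor subunit, was at 188 and 169 TPM in RNA and 31.6 and 28.2 TPM in footprints (-1.94 ± 0.107), and Grik5, a kainate receptor subunit, at -2.36. Gabra2, a subunit of the GABA-A receptor, was the highest of the list at 0.84. Of 44 genes in the list of voltage-gated channels 25 were low and 1 high. The list also holds Kcnj genes, which encode inward rectifiers without a voltage sensor. Its median was -1.12 and remained -0.68 after adjustment for length. Kcnq3, a subunit of the M-current potassium channel, was at 126 and 126 TPM in RNA and 11.6 and 10.6 TPM in footprints (-2.87 ± 0.121, adjusted p = 5.09e-10, edgeR). Cacna1g, a T-type calcium channel, was at -2.90, and the 1 high gene was Kcnj10 (1.46), the inward rectifier of astrocytes.

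The list of mRNAs known to be bound by FMRP in brain was among the lowest, with long coding sequences. Of 58 genes 30 were called low (51.7%) and 2 high, with a median log2 TE of -1.01. Their median coding length was 5370 nucleotides, against 1434 for all genes, and the length-adjusted median was -0.17. In the length group above 3570 nucleotides, which holds that median length, 45.0% of all genes were low. Adcy1, a calcium-stimulated adenylyl cyclase, was at 364 and 295 TPM in RNA and 20.3 and 19.6 TPM in footprints (-3.40 ± 0.102, adjusted p = 4.20e-11, edgeR). Shank1, a scaffold of the postsynaptic density, was at 156 and 125 TPM and 7.85 and 7.56 TPM (-3.54 ± 0.210), and Celsr3, an adhesion receptor of axon guidance, at -3.77 ± 0.148. The high members were Camk2a and Arc, of which Arc was not called without replicate 2. Camk2a, the alpha subunit of the synaptic kinase CaMKII, was at 1166 and 711 TPM in RNA and 1777 and 1554 TPM in footprints (1.50 ± 0.217). In the 6 knockout pairs the list median was -1.13 to -0.60, and those libraries include genotypes with and without FMRP.

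mRNAs known to be carried into dendrites spread over nearly the whole range, with 3 of 21 called high and 9 low, a median of -0.78 and a length-adjusted median of -0.32. Nrgn was the highest at 2.28. Ppp1r9b, the spine protein spinophilin, was at 323 and 236 TPM in RNA and 34.3 and 29.7 TPM in footprints (-2.48 ± 0.118), and Ddn, the postsynaptic protein dendrin, at 395 and 377 and 51.4 and 42.7 TPM (-2.40 ± 0.109). Nrgn and Ddn thus differed by more than 4 on the log2 scale.

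Immediate-early genes, which neurons induce within minutes of activity, were efficient in WT, but the size depended on the replicate. Of 21 genes 12 were called high and 0 low, with a median of 1.15 and a length-adjusted median of 1.01. The median was 0.57 in pair 1 and 1.59 in pair 2, and 18 of the 21 were higher in pair 2, against 47.3% of all genes. Arc, a capsid-like synaptic protein, was at 202 and 64.9 TPM in RNA and at 150 and 234 TPM in footprints, so that log2 TE was 0.23 in pair 1 and 2.47 in pair 2. Its fitted value was 1.27 ± 0.424 (adjusted p = 0.0162, edgeR), which became 0.23 (adjusted p = 0.623) without replicate 2, and it did not pass in DESeq2 (adjusted p = 0.0654). The count of high genes was 17 without replicate 1 and 6 without replicate 2. RNA was higher in library 1 than in library 2 for 14 of the 21 genes (49.3% of all genes), and footprints for 4 (47.9% of all genes). Egr1, a zinc finger transcription factor, was steadier at 138 and 162 TPM in RNA and 319.7 and 499 TPM in footprints (2.06 ± 0.174, 1.87 and 2.25 in the pairs). Jun, a subunit of AP-1, was at 2.11 ± 0.141, with 1.83 and 2.45 in the pairs. The 2 libraries of a number need not come from 1 animal, and the part of this in the list's median was not tested.

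**Figure D5:**
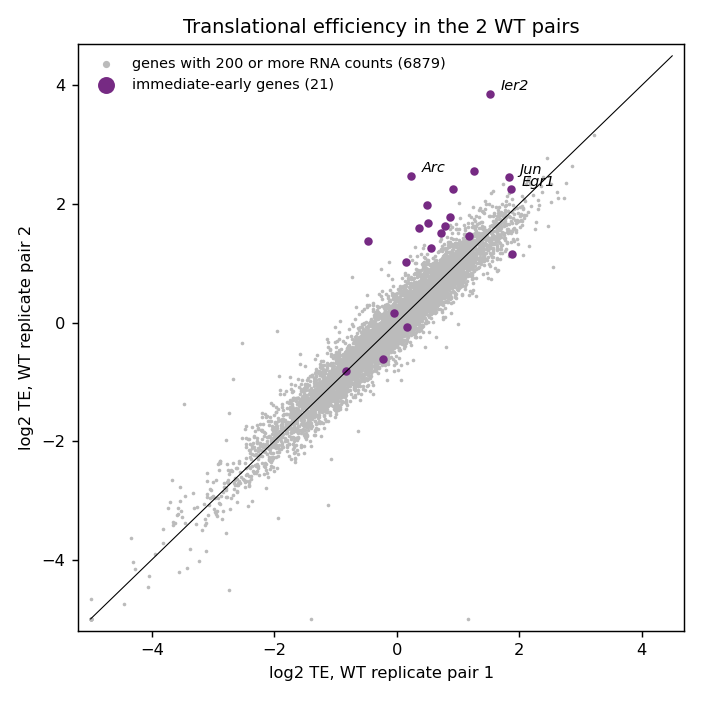
Log2 TE of WT replicate pair 2 against pair 1 for the 6879 genes with at least 200 RNA counts on average (grey), with the tested immediate-early genes in colour and the line of equality. Values below -5 are drawn at the edge. The genes follow the line (r = 0.961), while most immediate-early genes lie above it.

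Clock genes showed no common level. Of 19, 1 was called high (2 without replicate 1) and 2 low, with a median of 0.16 and a length-adjusted median of 0.15. Per3 was at -2.17 and Clock at -1.57, both parts of the core loop, and the output factor Hlf at 99.4 and 87.2 TPM in RNA and 158 and 152 TPM in footprints (1.37 ± 0.135). Genes whose symbol begins with Zfp and a digit, mostly zinc finger transcription factors, lay below the typical ratio, with 92 of 328 low and 12 high and a median of -0.58 (length-adjusted -0.41). Zfp931 was the lowest at -3.19. The highest was Zfp36l1, an RNA-binding protein that promotes decay of mRNAs, with 3.7 and 8 TPM in RNA and 25.5 and 29.1 TPM in footprints (2.96 ± 0.249).

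The WT pattern was largely shared by the knockout genotypes, which use other libraries. The Fmr1 knockout had 1654 high (12.7%) and 2240 low genes (17.2%), the Cpeb1 knockout 1712 (13.1%) and 2171 (16.6%), and the double knockout 1666 (12.8%) and 2416 (18.5%). Of the WT high genes 76.4%, 75.7% and 79.8% were also high in these genotypes, and of the WT low genes 82.4%, 80.6% and 87.8% were also low. Taken the other way, 80.2%, 76.8% and 83.2% of the genes high in each knockout were high in WT, and 87.7%, 88.5% and 86.6% of its low genes were low in WT. In all 6 knockout pairs log2 TE was above 0 for 1674 of the 1737 WT high genes (96.4%, against 37.3% of all genes) and below 0 for 2336 of the 2383 WT low genes (98.0%, against 37.1%). The difference between WT and the mean of the 3 knockouts passed an adjusted p under 0.05 in edgeR for 2 genes (0.0153%), with 906 at an unadjusted p under 0.05. They were Fmr1, whose log2 TE was 0.13 in WT and 1.15 ± 0.133 (SE) above the knockout mean (adjusted p = 0.0080), and Rec8, a meiotic cohesin gene, which lay below it (adjusted p = 0.0175). Rec8 had 8 and 40 RNA counts and 9 and 1.01 footprint counts in WT, against 0 to 3 RNA counts and 16 to 143 footprint counts per knockout library, so the size of its fitted difference is not interpretable. Neither gene passed without WT replicate 2, where 1 other gene did (Col1a1, a collagen gene), and Fmr1 did not pass without the replicate block. DESeq2 called 8 genes, Fmr1 among them.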

How the data were processed

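RNA-seq and ribosome profiling libraries of WT cortex (2 each) were compared gene by gene, beside 12 libraries of the knockout genotypes. The gene lists, the rule for named genes and the members were chosen with earlier results of these data known. The authors deposited, per the file headers, RSEM gene tables with expected counts (estimates per gene, not scaled to library size), TPM scaled within each library, and feature and effective lengths. The submitters' processing notes list cutadapt, Bowtie2, TopHat2, RSEM and DESeq2 and the mm10 build, with no versions or roles. How reads matching several genes were handled and whether strand was used are not given in the sources used here. RNA features were whole numbers of codons in 99.6% of 15716 genes with 1 transcript, and footprint features were 57 nucleotides shorter, so counts cover coding sequences. The authors' deposited Xtail table gives log2 WT efficiencies, whose scaling is not given in the sources used here, and was used only beside the values computed here.

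Expected counts were rounded and fitted with edgeR 4.0.16 (R 4.3.3, quasi-likelihood) over all 16 libraries, with a term for each genotype and replicate number, a footprint-minus-RNA term per genotype, TMM scaling, and the effective length of each gene and library as an offset. The fit had 4 residual degrees of freedom. Genes needed a mean of at least 1 CPM over the assays and an effective length of at least 100 nucleotides in every library, which left out 7322 and 53 genes. P-values were adjusted by Benjamini-Hochberg over all genes tested. Values of single replicate pairs add 0.5 to each count, and correlations of TPM add 0.1. The lowest named genes, with 0 to 25 footprints each, are given as count ratios with exact 95% conditional binomial intervals in place of fitted values. Named genes are the 12 highest and 12 lowest called genes with at least 50 mean RNA counts, the same sign in both pairs and an established symbol, the 3 highest and 3 lowest members of each list, and the 10 genes with most footprint TPM, and some of them are not reported here. Cadm3, Tardbp, Prepl, Gnb1, Gdf1, Cdr1, Gad1, Rec8, Col1a1, the 14-3-3 and G gamma genes, and the ribosomal protein genes whose starts are printed were named after their values were seen. In data simulated for the WT comparison of 13061 genes, 95% of 100 genes changed by 1.5 on the log2 scale and all of 100 changed by 2.5 were called, and 0 of 12861 unchanged genes were. Every simulated gene had the same dispersion of 0.008, and genes with few counts were not among the changed ones. The simulation therefore does not cover genes with a wider spread. A call also needed a log2 difference of 1, so the 0 calls of unchanged genes do not measure the error rate in the real libraries. Figures used matplotlib.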

Additional observations from a re-analysis of the deposited data

Results flagged for a closer look

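The efficiency of 2 genes differed between WT and the mean of the 3 knockout genotypes in a test of that difference. Fmr1 was 1.15 higher on the log2 scale in WT (edgeR, adjusted p = 0.0080). Of the 3 knockouts 2 carry the Fmr1 knockout, with log2 TE values of -1.38 (Fmr1 alone) and -1.89 (both genes), while the Cpeb1 knockout had 0.21. Fmr1 RNA remained at 14.6 to 20.7 TPM in those 2 genotypes, so their values are those of the remaining RNA. Rec8 differed by -8.13 (adjusted p = 0.0175), with WT counts of 8 and 40 in RNA and 9 and 1.01 in footprints against 0 to 3 in RNA and 16 to 143 in footprints of the knockouts. The WT log2 TE of Rec8 was -0.96 in pair 1 and -6.53 in pair 2, and neither gene's difference from the knockouts passed without WT replicate 2. What moves Rec8 was not tested.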

How the results depend on the processing

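The counts of high and low genes stayed within 1.5 times of 1737 and 2383 under the other scaling, DESeq2, no length offset, other filters, WT libraries alone and either replicate left out (high 1572 to 1951, low 2299 to 2598), and no gene called high became low or the reverse. Testing against a change of 1 with edgeR's glmTreat gave fewer genes by construction, 833 high and 1480 low. Without WT replicates 1 and 2 in turn the counts were 1691 and 1773 high and 2332 and 2313 low, and 1441 and 1531 of the 1737 high genes and 2113 and 2134 of the 2383 low genes remained. No replicate block gave 1726 high and 2386 low genes. The labels do not say that same-numbered libraries share an animal, and across genes the replicate difference in WT RNA correlated at 0.0104 with that in WT footprints (0.115 to 0.194 in the knockouts), so the numbers may not pair the WT libraries. The count of genes that differ between WT and the knockouts was 2, and 8 in DESeq2, 31 with no filter, 1 with filterByExpr, 1 with no replicate block, and 4 and 1 without WT replicates 1 and 2; the cause was not tested. Over 122 named genes and 11 alternatives, 1310 values kept their direction and their side of an adjusted p of 0.05. An adjusted p under 0.05 was lost in 11 values of genes called high or low and in 4 of genes not called. Another 13 genes had no value under filterByExpr, which tests fewer genes. Except with glmTreat, these counts do not use the fold limit. A called gene that only fell short of the fold limit is therefore not among the 11. Tuba1c, at -1.08, changed sign to 0.16 with no replicate block and to 1.17 without replicate 2, and was at -8.19 and called low without replicate 1; the cause was not tested. Medians of the 22 lists moved by more than the SD between the WT pairs in 40 values and by less in 202, the median of iron-responsive-element mRNAs, which lies near 0, was the one to change sign, and the widest moves were those of immediate-early genes, to 0.57 and 1.59 without replicates 2 and 1. Footprint counts limit the low end, where 18 tested genes had none in WT.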

Other observations

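The first 50 transcribed bases of the 7815 tested genes with 1 annotated start differed little in base composition between the groups, with a mean G and C content of 64.0% in high genes, 67.2% in low genes and 66.1% in all. An ATG lay in that window in 23.3% of high genes, 31.0% of low genes and 30.2% of all. These are values of the annotation's first bases, which need not be the starts used in cortex and which can include the start codon of the main reading frame, and no test was made of them.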
